A study of Mus musculus with 8 samples.

Results

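The mRNAs described here encode galectins and galectin-3 binding protein, in a mouse line of medullary thymic epithelial cells (mTECs). They were *Lgals1*, *Lgals3*, *Lgals4*, *Lgals7*, *Lgals8*, *Lgals9* and *Lgals3bp*, 7 of the 24052 gene symbols listed. The 7 were chosen by name with their measured difference between mutant and WT cells already known, so that difference is given as a description, without a test. Of the 7, 6 had at least 1 count in some library and 5 passed the filter on low counts, all but *Lgals4* and *Lgals7*.

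The WT mTEC 3.10 line, labelled as C57BL/6, was compared with its clone E6, in which *Aire* had been edited. The labels give E6 the genotype Aire +/-, whereas the study's text describes mutations of both alleles, and E6 stands for 1 clone. Each cell type was sequenced before and after thymocyte adhesion, a co-culture of 12 h with 50 thymocytes from C57BL/6 mice per mTEC, after which adherent thymocytes were washed off. Each of the 4 conditions has 2 RNA-Seq libraries, and nothing in the labels says that these came from separate cultures, so p-values measure only the spread between these samples. Both WT libraries before adhesion, replicate 1 of WT after adhesion and replicate 2 of both E6 conditions had 12 h of culture, and the others had 24 h.

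Galectins are lectins that bind beta-galactoside sugars, above all N-acetyllactosamine on glycoproteins. They leave the cell without a signal peptide and cross-link glycoproteins at the cell surface and in the extracellular matrix. Galectin-1 and galectin-7 have a single sugar-binding domain, galectin-3 carries an added tail through which it assembles into larger complexes, and galectin-4, galectin-8 and galectin-9 join a pair of such domains in 1 chain. Galectin-3 binding protein is a heavily glycosylated secreted protein that galectin-3 and galectin-1 bind. In the thymus, galectin-1, galectin-3 and galectin-9 are known to bind thymocytes and to act on their adhesion, migration and death.

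The libraries held from 13506610 to 20145154 counts on genes. In replicate 1 of WT after adhesion 66.7% of its reads were on genes, against 75.7% to 78.8% elsewhere. Its log2 level, taken relative to each gene's mean over the libraries, also fell by 0.46 per 10% of GC content, against slopes of -0.02 to 0.13 in the others. *Aire*, the edited gene, had 0 counts in every library before adhesion, and 0 and 3 after it in each cell type, so its level could not check the labels. Epithelial markers such as *Epcam*, *Cdh1*, *Krt8* and *Krt18* were abundant, with all 16 mTEC markers summing to 4339 to 5948 CPM (counts scaled by library size) per library, whereas *Aire*, *Fezf2*, *Cd80*, *Cd40*, *Cldn3* and *Tnfrsf11a* of the same list had at most 6 counts. The 10 fibroblast markers summed to 1.18 to 4.21 CPM.

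The mRNAs differed widely in level when CPM were divided by summed exon length. Before adhesion in WT, *Lgals1* stood at 2312 ± 87.7 CPM per kb (SD, n = 2), and in the 4 conditions it held a rank between 3 and 5 among the 11672 genes tested. *Lgals3* followed at 142 ± 5.78 CPM per kb. *Lgals8* and *Lgals9* were at 21.6 ± 0.863 and 18.2 ± 1.06 CPM per kb, and *Lgals3bp* was at 1.45 ± 0.298. In E6 after adhesion the order of the 3 lower mRNAs had changed, with *Lgals9* at 36.6 ± 1.99, *Lgals3bp* at 21.9 ± 1.28 and *Lgals8* at 18.9 ± 0.44 CPM per kb. *Lgals3bp* thereby passed from rank 9402 to rank 2370 among the tested genes.

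**Figure D1:**
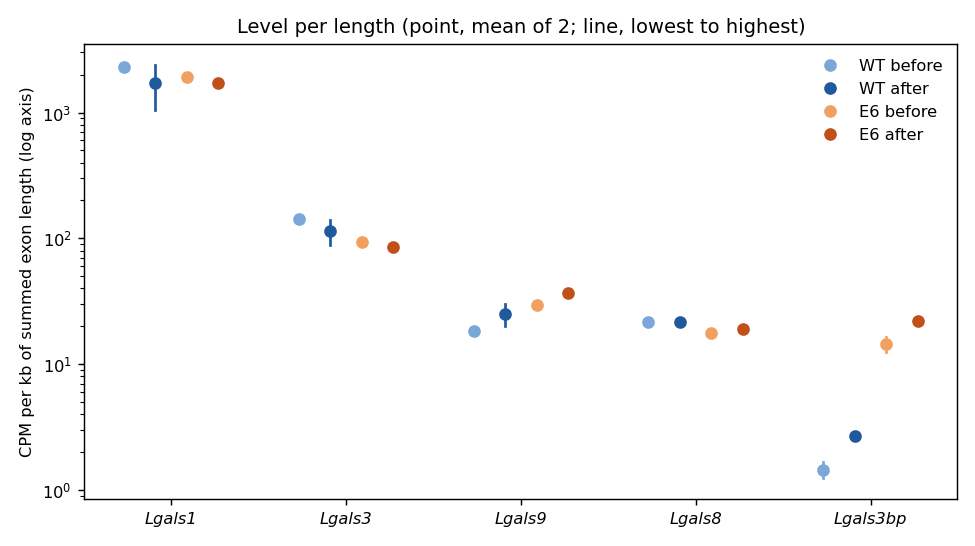
Level of each of the 5 mRNAs that passed the filter, in CPM per kb of summed exon length on a log axis, in WT and E6 before and after thymocyte adhesion. Points are means of 2 libraries and lines run from the lower to the higher library; *Lgals1* lies above 1000 in every condition, and *Lgals3bp* moves from 1.45 in WT before adhesion to 21.9 in E6 after adhesion.

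*Lgals3bp* was higher in E6 than in WT in every library. It lies on chromosome 11 of GRCm38, from 118392751 to 118402092 on the minus strand. WT libraries had 4.74 and 3.54 CPM before adhesion and 7.80 and 7.55 CPM after it. E6 libraries had 46.8 and 36.0 CPM before adhesion and 64.9 and 59.7 CPM after it. The 4 conditions did not overlap at any point of the order WT before, WT after, E6 before, E6 after. Averaged over both conditions, *Lgals3bp* was 8.98-fold higher in E6, with a log2 FC of 3.17 (SE 0.14) and a 95% interval of 7.15 to 11.3-fold. Its log2 FC was 3.31 (SE 0.20) before adhesion and 3.02 (SE 0.19) after it. At 12 h of culture alone the log2 ratio was 3.12 before and 2.94 after adhesion, and at 24 h after adhesion it was 3.10. After adhesion each of these ratios set 1 E6 library against 1 WT library. Leaving out each library in turn gave averaged log2 FCs from 3.07 to 3.28.

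*Lgals9*, which encodes galectin-9, was the other member above the limits for a DE mRNA, an FC of 1.5 or more with an FDR under 0.05. It is on chromosome 11 too, from 78962974 to 78984946 on the minus strand. WT libraries had 40.5 and 37.3 CPM before adhesion and 64.7 and 43.0 CPM after it. E6 libraries had 65.6 and 61.4 CPM before adhesion and 81.2 and 75.2 CPM after it. Within each condition E6 lay above WT, but replicate 1 of WT after adhesion exceeded replicate 2 of E6 before adhesion. The averaged log2 FC was 0.62 (SE 0.13), a 1.54-fold higher level, with 0.71 (SE 0.19) before and 0.54 (SE 0.19) after adhesion. It lies just above the FC limit, and its DE status was lost without any one library other than replicate 1 of WT after adhesion. Without that replicate it was 0.80, and without replicate 2 of WT after adhesion 0.50. The value after adhesion was 0.89 without replicate 1 and 0.30 without replicate 2. The log2 ratio of E6 to WT was 0.66 before and 0.22 after adhesion at 12 h of culture, and 0.92 after adhesion at 24 h. After adhesion each ratio set 1 library against 1, with replicate 1 of WT at 12 h and replicate 2 at 24 h. Culture time and replicate therefore cannot be told apart there.

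Both of these mRNAs are known to rise under interferon, and their promoters are shown because they were higher in E6 together. The windows, from 250 bases before to 50 bases after the annotated start, come from RefSeq on GRCm38.p6 and read 5′ to 3′ along the gene. Capitals mark 2 copies of GAAA separated by 2 bases, the core that interferon regulatory factors bind, on either strand.
Lgals3bp, chr11:118401910-118402209, minus strand: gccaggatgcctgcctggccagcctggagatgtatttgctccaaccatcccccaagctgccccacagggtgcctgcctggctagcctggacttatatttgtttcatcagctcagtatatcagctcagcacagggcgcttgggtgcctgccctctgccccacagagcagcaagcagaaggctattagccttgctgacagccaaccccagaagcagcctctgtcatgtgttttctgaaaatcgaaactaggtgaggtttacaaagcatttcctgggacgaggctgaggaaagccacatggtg
Lgals9, chr11:78984875-78985174, minus strand: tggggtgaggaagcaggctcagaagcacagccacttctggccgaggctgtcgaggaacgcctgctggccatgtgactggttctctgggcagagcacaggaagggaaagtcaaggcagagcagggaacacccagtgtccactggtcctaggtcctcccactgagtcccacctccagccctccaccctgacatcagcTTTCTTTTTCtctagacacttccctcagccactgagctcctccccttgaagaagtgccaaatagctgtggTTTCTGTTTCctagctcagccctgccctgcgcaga
The *Lgals9* window held 2 such matches, both on the strand opposite to the gene, with first bases at positions -55 and 16 counted from the start. The *Lgals3bp* window held none with this spacing. It did hold 2 copies of GAAA separated by 3 bases, left in lower case. That spacing was not searched for in the other windows. Of 6 members with a window in the table, 1 held the motif, and 1131 of 32851 windows did (3.44%). The motif TTCNNNGAA, which STAT factors bind, was in 0 of the 6 windows and in 8.30% of all. Such matches describe the letters and not binding.

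The remaining 3 expressed mRNAs were at lower or like levels in E6. *Lgals3*, which encodes galectin-3, lies on chromosome 14 from 47367751 to 47386160 on the plus strand. WT libraries had 256 and 271 CPM before adhesion and 164 and 260 CPM after it. E6 libraries had 173 and 177 CPM before adhesion and 150 and 169 CPM after it. All but replicate 1 of WT after adhesion lay above every E6 library. The averaged log2 FC was -0.50 (SE 0.15), 1.42-fold lower in E6 and short of the FC limit, with -0.59 (SE 0.21) before and -0.41 (SE 0.21) after adhesion. Without replicate 1 of WT after adhesion it was -0.63, beyond the FC limit, and without replicate 2 of that condition it was -0.30. The value after adhesion was -0.67 without replicate 1 and -0.01 without replicate 2. The log2 ratio of E6 to WT was -0.58 before and 0.05 after adhesion at 12 h of culture, and -0.79 after adhesion at 24 h. Here too the ratios after adhesion set 1 library against 1. With replicate 1 of WT at 12 h and replicate 2 at 24 h, culture time and replicate cannot be told apart.

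*Lgals8*, which encodes galectin-8, a lectin that marks damaged endosomes in the cytosol, lies on chromosome 13 from 12439415 to 12464944 on the minus strand. WT libraries had 81.7 and 77.2 CPM before adhesion and 82.7 and 76.6 CPM after it. E6 libraries had 64.7 and 65.1 CPM before adhesion and 71.0 and 68.7 CPM after it. Every WT library lay above every E6 library, although the difference was small, with an averaged log2 FC of -0.24 (SE 0.07). The log2 ratio of E6 to WT was -0.29 before and -0.27 after adhesion at 12 h of culture, and -0.11 after adhesion at 24 h. Those after adhesion set 1 library against 1. The gene overlaps *Heatr1* on the opposite strand, and the strand setting of the counting is not given in the sources used here. *Heatr1* moved the other way, at 0.34 (SE 0.07).

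*Lgals1*, which encodes galectin-1, lies on chromosome 15 from 78926725 to 78930465 on the plus strand. WT libraries had 2143 and 2031 CPM before adhesion and 951 and 2167 CPM after it. E6 libraries had 1750 and 1725 CPM before adhesion and 1564 and 1522 CPM after it. Apart from replicate 1 of WT after adhesion, which was the lowest of the 8, WT lay above E6. The averaged log2 FC was -0.14 (SE 0.23) with a 95% interval of -0.68 to 0.40, and it turned to 0.23 without replicate 2 of WT after adhesion and was -0.36 without replicate 1. The log2 ratio of E6 to WT was -0.28 before and 0.68 after adhesion at 12 h of culture, and -0.47 after adhesion at 24 h. Again the ratios after adhesion set 1 library against 1, with replicate 1 of WT at 12 h and replicate 2 at 24 h. A dependence on culture time cannot be told apart from the replicate. In replicate 1 of WT after adhesion, 137 genes with under 1 kb of exons, the class of *Lgals1*, had a median log2 deviation of -0.31 from their mean over the libraries, against -0.15 to 0.17 in the others. The part of this in the value of *Lgals1* was not tested.

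**Figure D2:**
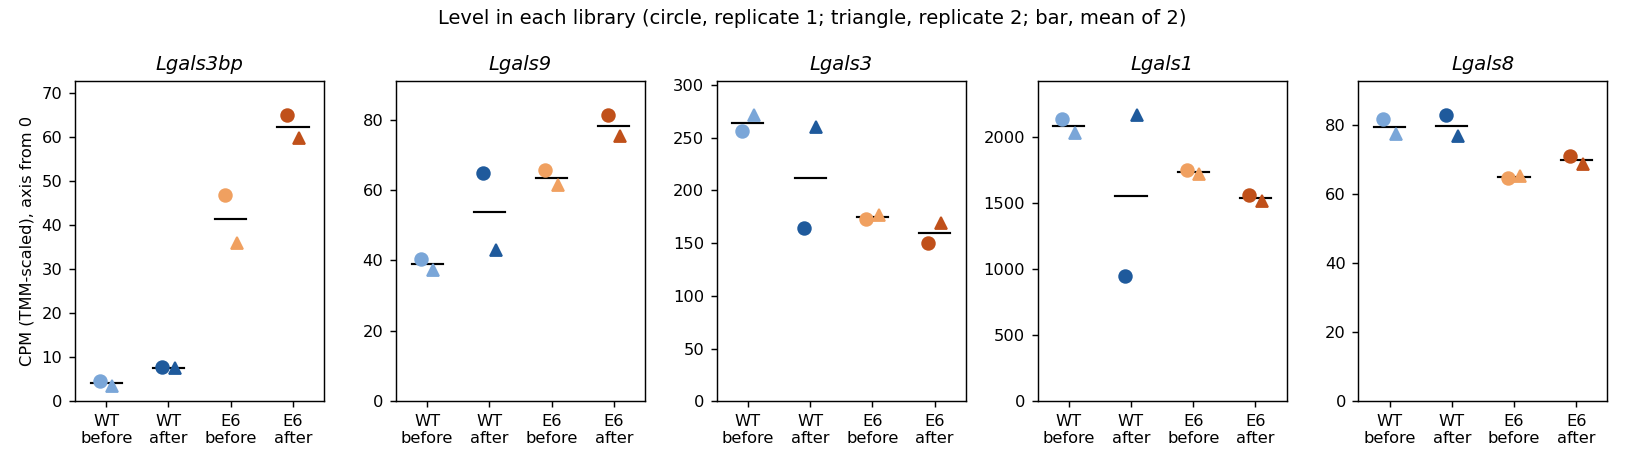
Level of the 5 mRNAs in each library, in TMM-scaled CPM on linear axes from 0, by condition. Circles are replicate 1, triangles replicate 2 and bars the mean of 2; *Lgals3bp* rises through the 4 conditions from 3.54 to 64.9 CPM, and replicate 1 of WT after adhesion stands apart from its partner for *Lgals9*, *Lgals3* and *Lgals1*.

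*Lgals4* and *Lgals7*, known from gut and stratified epithelium, were near or at 0. *Lgals4* (chromosome 7, 28833854 to 28841708, plus strand) had 2 counts in replicate 2 of WT before adhesion and in each E6 library after adhesion, and 0 in the other 5. *Lgals7* (chromosome 7, 28863853 to 28866284, plus strand) had 0 counts in all 8. A count of 0 allows up to 3 counts, which is 0.149 to 0.222 CPM at these depths and covers counting error only, so no difference was detectable for either gene. Of 5 other genes of the family, *Lgals2*, *Lgals6*, *Lgals12*, *Lgalsl* and *Grifin*, 2 passed the filter. By edgeR 0 of these 2 were DE in E6 against WT averaged, beside 11.3% of all tested genes. At an unadjusted p under 0.05 there was 1 of the 2, beside 4117 of 11672 tested genes. The averaged log2 FC was -0.20 (SE 0.13) for *Lgals12* and -0.28 (SE 0.11) for *Lgalsl*.

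In E6 against WT, 2 of the 5 members that passed the filter were DE averaged, beside 11.3% of all tested genes, and 1, *Lgals3bp*, was DE before and after adhesion, beside 5.01% and 8.91%. These contrasts chose the members, so nothing is read from the counts. The averaged count changed as each library was left out, as did the count over all tested genes. The median log2 FC of the 5 was -0.14, beside -0.01 over all tested genes.

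**Figure D3:**
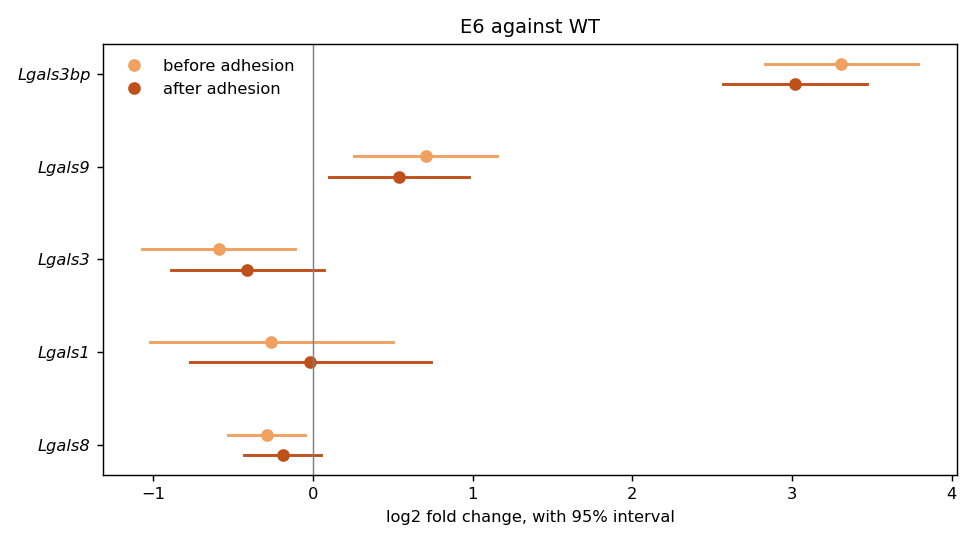
Log2 FC of E6 against WT for the 5 mRNAs, before and after thymocyte adhesion, with 95% intervals from the model of all genes. *Lgals3bp* lies at 3.31 and 3.02, *Lgals9* at 0.71 and 0.54, and *Lgals1*, *Lgals3* and *Lgals8* lie at or below 0.

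After thymocyte adhesion, *Lgals3bp* lay above its level before adhesion in both cell types, without overlap. Its averaged change was known when the members were chosen and is a description, a log2 FC of 0.74 (SE 0.14), or 1.67-fold, which met the DE limits. In WT the log2 FC was 0.88 (SE 0.21, 95% interval 0.40 to 1.36) and in E6 0.59 (SE 0.17, 95% interval 0.18 to 1.00). Within 12 h of culture it was 0.92 in WT and 0.73 in E6, and within 24 h it was 0.47 in E6. The E6 values set 1 library against 1, and the WT value 1 library after adhesion against 2 before. With culture time as a term the averaged log2 FC was 0.70 and no longer DE, and it was not DE without any one library of E6 or of WT before adhesion, between 0.64 and 0.85. The difference of the 2 effects was -0.29 (SE 0.27, 95% interval -0.92 to 0.34; edgeR, FDR = 0.988).

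*Lgals9* was also above its earlier range after adhesion in both cell types, by log2 FCs of 0.47 (SE 0.19) in WT and 0.30 (SE 0.19) in E6, with edgeR FDRs of 0.62 and 1. The WT value was 0.14 without replicate 1 of WT after adhesion and 0.72 without replicate 2. Each of these fits left that condition 1 library, with no spread of its own, so only effect sizes are given for them. *Lgals1* had -0.42 (SE 0.32) in WT (FDR = 0.644), a value of 0.05 without replicate 1 and of -1.15 without replicate 2. Its 2 E6 libraries after adhesion lay below the 2 before, with -0.17 (SE 0.32; FDR = 1). *Lgals3* had -0.31 (SE 0.20) in WT (FDR = 0.627), -0.03 without replicate 1 and -0.70 without replicate 2, and -0.13 (SE 0.21) in E6 (FDR = 1). For *Lgals8* the values were 0.00 (SE 0.10) in WT (FDR = 0.996) and 0.11 (SE 0.10) in E6 (FDR = 1), with 95% intervals of -0.24 to 0.24 and -0.14 to 0.35.

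By edgeR, 0 of the 5 were DE in WT, where 0% of all tested genes were, and 2 of them had an unadjusted p under 0.05. In E6 it was 0 of 5, beside 2.00% of all genes, with 1 at an unadjusted p under 0.05. Averaged over both cell types 1 was DE, beside 1.89% of all. For the difference of the effects it was 0 of 5, beside 0% of all, with 0 at an unadjusted p under 0.05. DESeq2 called 0 of the 5 in WT, in E6 and for the difference. Over all genes, 873 in WT, 813 in E6 and 297 for the difference had an unadjusted p under 0.05, and DESeq2 called 64, 296 and 3. Without replicate 1 or without replicate 2 of WT after adhesion, more of the 5 were DE in WT and in E6, as were more of all tested genes. That condition then had 1 library and no spread of its own. In these fits the log2 FC of *Lgals3bp* in E6 was 0.62 without WT replicate 1 and 0.61 without WT replicate 2. The difference of the effects for *Lgals1* was -0.20 and 0.99.

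**Figure D4:**
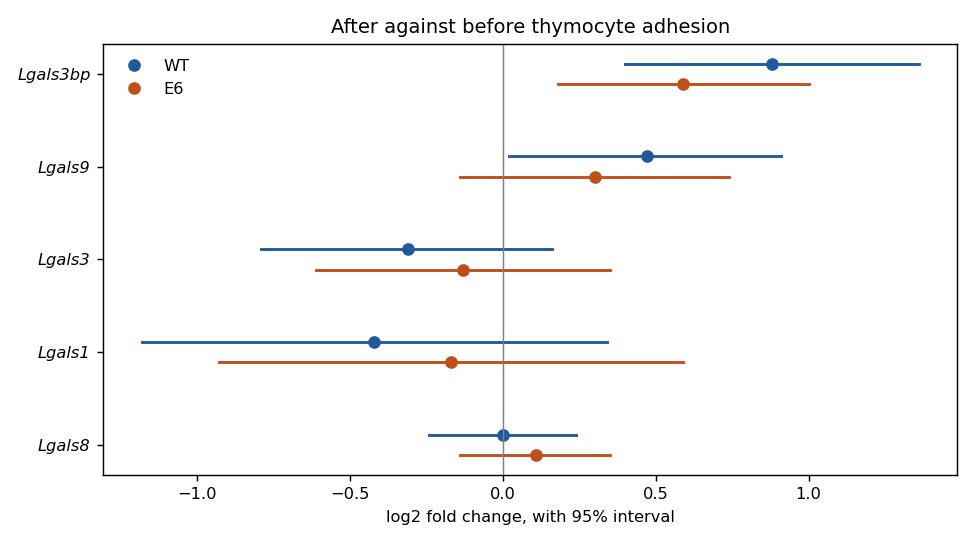
Log2 FC after against before thymocyte adhesion for the 5 mRNAs in WT and in E6, with 95% intervals from the model of all genes. *Lgals3bp* lies at 0.88 in WT and 0.59 in E6 with both intervals above 0, and for *Lgals3*, *Lgals1* and *Lgals8* every interval includes 0.

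The libraries after adhesion also held thymocyte mRNAs. The 17 of 25 thymocyte markers analysed summed to 0.442 to 0.668 CPM in WT and 0.268 to 0.902 CPM in E6 before adhesion, and to 12.8 to 17.8 and 88.6 to 111 CPM after it. The macrophage marker *Lyz2* had 0 counts in each library before adhesion, 12 and 24 in WT and 109 and 88 in E6 after it, while the 13 macrophage markers analysed summed to 53.2 to 89.9 CPM in all libraries. *Csf1r* held 70.8% to 82.3% of the macrophage marker counts in the other 6 libraries, and 45.2% and 46.7% in E6 after adhesion, where *Lyz2*, *Ptprc* and the C1q genes were above their counts before adhesion. Their part in the changes after adhesion was not tested, and in bulk RNA a change in the share of cells and a change in the RNA per cell cannot be told apart. *Lgals3bp* was 9.93-fold higher in E6 before adhesion and 8.12-fold higher after it. The part of thymocyte and macrophage mRNAs in either value was not tested.

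Relative to *Lgals3*, whose product binds the protein of *Lgals3bp*, the CPM ratio of *Lgals3bp* was 0.0130 to 0.0476 in WT and 0.204 to 0.433 in E6. Across the 8 libraries, which share the 4 conditions and their depth, the log2 CPM of *Lgals3* and *Lgals9* had a Pearson r of -0.98, and *Lgals3bp* and *Lgals9* one of 0.89. *Lgals1* and *Lgals3* had an r of 0.72, and 0.94 over 7 libraries without replicate 1 of WT after adhesion, left out after its values were seen. The tested genes with the patterns nearest to *Lgals3bp* were *Trak2*, *Riok3* and *Antxr2*, an anthrax toxin receptor (r = 0.993, 0.991 and 0.990). Their log2 FCs in E6 were 0.37, 0.53 and 1.61, each below the 3.17 of *Lgals3bp*, since r does not measure the size of a change. Nearest to *Lgals9* were *Erap1*, an aminopeptidase that trims peptides for MHC class I, *Samd9l* and *Cep170* (r = 0.991, 0.988 and 0.984). *Lgals1* lay nearest to the ribosomal protein mRNAs *Rps18* and *Rps9* and to *Cuedc2* (r = 0.997, 0.996 and 0.996). *Lgals3* lay nearest to *Ddt*, *Nrbf2* and *Rpl28* (r = 0.991, 0.989 and 0.988), and *Lgals8* to *Utp14b* and *Dbt* (r = 0.983 and 0.981).

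The genes around *Lgals3bp* did not share its difference. Within 1 Mb on each side, 25 tested genes had a median log2 FC in E6 of 0.05, with 0 higher and 2 lower among the DE mRNAs. Around *Lgals9*, 33 genes had a median of -0.20, with 1 higher and 3 lower. The 981 tested genes of chromosome 11 had a median of -0.07.

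The sugars that galectins bind are built by glycosyltransferases, and their mRNAs moved in both directions in E6. This list and those below were chosen with earlier results of these data known, so their counts are a description. Of 27 genes for the branches and chains that carry N-acetyllactosamine, 21 passed the filter, 4 were higher and 2 lower, beside 5.22% higher and 6.13% lower of all tested genes, with a median log2 FC of 0.18. *Gcnt1*, which starts core 2 branches of O-glycans, rose from 0.362 ± 0.112 CPM (SD, n = 4) in WT, with 4 to 10 counts, to 1.27 CPM in E6 (log2 FC 1.82, SE 0.30, edgeR FDR = 0.00715). *Mgat4a*, which adds a branch to N-glycans, went from 15.1 ± 0.823 CPM to 27.2 CPM (log2 FC 0.84, FDR = 0.00156). *Gcnt2*, which branches poly-N-acetyllactosamine, was higher by 0.73 (FDR = 0.0104). *Mgat3*, which adds the bisecting residue of N-glycans, was lower by a log2 FC of -2.55 (SE 0.70, FDR = 0.0416), on at most 30 counts in a library. *B4galt4*, a galactosyltransferase, stood at -0.62 (FDR = 0.0168).

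Sialic acid caps these chains, and in alpha-2,6 linkage it blocks the binding of several galectins. Of 17 genes on this list, 11 passed the filter, 1 was higher and 2 lower in E6, beside 5.22% higher and 6.13% lower of all tested genes, with a median log2 FC of 0.02. *St3gal4* rose (0.69, edgeR FDR = 0.00803), and *St3gal6* and *St3gal5* fell (-1.06 and -0.61, both with an FDR of 0.0237). These 3 enzymes add sialic acid in alpha-2,3 linkage, and *St3gal5* acts on glycolipids.

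Among listed mRNAs for glycoproteins that galectins bind, more were DE and higher in E6 than lower. The list was chosen with earlier results of these data known, so this describes the list only. Of 29 ligands and receptors, 27 were analysed and 21 passed the filter, of which 7 were higher and 0 lower, beside 5.22% higher and 6.13% lower of all tested genes. Their median log2 FC was 0.40, beside -0.01 over all tested genes. *Havcr2*, which encodes TIM-3, a receptor for galectin-9, had 0.364 to 0.780 CPM in the 4 WT libraries and 4.09 to 9.20 CPM in the 4 E6 libraries. Its log2 FC was 3.63 (SE 0.20, edgeR FDR = 0.000175), and 3.51 (FDR = 0.00234) before adhesion. *Ptprc*, the leukocyte phosphatase CD45 that galectin-1 binds, is itself one of the thymocyte markers and had at most 4 counts in any library before adhesion, so its log2 FC of 2.46 (FDR = 0.0324) rested on the libraries after it. The other DE ligands named here serve adhesion, namely *Itga6*, an integrin chain (0.91, FDR = 0.00122), *Cd44*, the hyaluronan receptor (0.75, FDR = 0.0111), and *Fn1*, fibronectin (0.75, FDR = 0.00238). *Fn1* went from 5561 ± 145 CPM in WT (SD, n = 4) to 9324 CPM.

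Over the 3 lists together, with 21, 11 and 21 genes tested, 16 were DE in E6, beside 11.3% of all tested genes. This count was lower without any one of the E6 libraries or of the WT libraries before adhesion, as was the count over all tested genes. After thymocyte adhesion, averaged over WT and E6, 0 genes of the sugar lists and 1 ligand were DE by edgeR, beside 1.79% higher and 0.103% lower of all tested genes. The ligand was *Ptprc*, at a log2 FC of 6.17 (SE 0.41, FDR = 0.00509), beside the rise of the other thymocyte markers. At an unadjusted p under 0.05 there were 1 of 21 genes for N-acetyllactosamine, 0 of 11 for sialic acid and 5 of 21 ligands, *Ptprc* among them. Over all tested genes it was 1154 of 11672. Without replicate 1 or without replicate 2 of WT after adhesion more genes of the lists were DE, as were more of all tested genes.

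**Figure D5:**
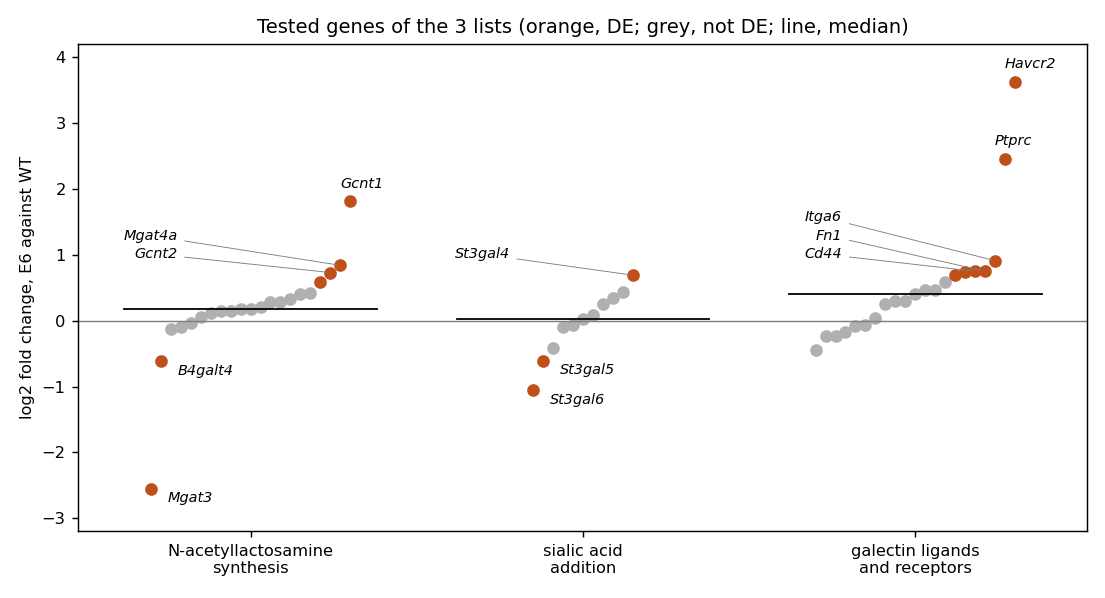
Log2 FC of E6 against WT, averaged over before and after adhesion, for each tested gene of the 3 lists, ordered by value within a list. Orange points are DE, grey points are not and lines are list medians, at 0.18 for N-acetyllactosamine synthesis, 0.02 for sialic acid addition and 0.40 for ligands and receptors.

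Of 23 interferon-stimulated genes, 20 passed the filter, 10 were higher and 1 lower in E6, beside 5.22% higher and 6.13% lower of all tested genes, with a median log2 FC of 1.57. *Oas2* had 0 or 1 count in each WT library and 24 to 124 counts in the E6 libraries (edgeR FDR = 0.000425), so no FC is given. Next by log2 FC came *Irf7* (3.22, edgeR FDR = 0.000562), *Ifit1* (3.03, FDR = 0.0279), *Rtp4* (2.93, FDR = 0.00196) and *Ifi44* (2.14, FDR = 0.0271). *Ifit1* and *Rtp4* had only 1 to 3 counts in the WT libraries before adhesion. *Ifit1* and *Ifi44* were not DE before adhesion alone or after it alone. Replicate 1 of WT after adhesion exceeded replicate 2 of E6 before it, at 1.42 against 0.536 CPM for *Ifit1* and 4.54 against 2.04 for *Ifi44*. After adhesion 5 were higher, beside 1.79% of all tested genes, among them *Rtp4* (1.88, FDR = 0.0469), *Irf9* (1.06, FDR = 0.0132) and *Ddx58* (0.74, FDR = 0.0088). The shift of *Lgals9* in E6 and after adhesion had the same sign as these medians, and its relation to them was not tested.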

How the data were processed

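RNA-Seq counts of 8 libraries were used. The authors deposited raw counts of reads per gene symbol from HTSeq, after alignment to mm10 (GRCm38) with STAR 2.5.0a per the submitters' processing notes, without normalization. The gene annotation and the strand setting are not given in the sources used here. The labels name a stranded mRNA kit and the study's text a total RNA kit, and the protocol text of E6 before adhesion speaks of co-culture, against the sample titles. Groups followed titles and source names. In replicate 1 of E6 before adhesion, 18 symbols turned into dates were restored from the gene order.

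Per library, 13506610 to 20145154 counts fell on genes, and 3 counts correspond to 0.149 to 0.222 CPM. Counts were analysed in R 4.3.3 with edgeR 4.0.16. Genes passing filterByExpr (11672) were scaled by TMM and fitted with glmQLFit, with 1 mean per condition and all 8 libraries. glmQLFTest gave the contrasts, with Benjamini-Hochberg FDR over all tested genes. DE mRNAs had an FC of 1.5 or more with an FDR under 0.05. SEs were derived from each test's F statistic as |log2 FC| / √F. The fit was tested on simulated data. Positions, exon lengths and GC content came from GENCODE on GRCm38, which matched 22740 symbols directly and 916 by an older symbol, leaving 396 unmatched. GC slopes and length medians used genes whose log2 CPM averaged 2 or more.

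The members and gene lists were chosen with earlier results of these data known. Named are all members, the up to 5 DE genes per list with the largest change in E6, the up to 3 after adhesion, and per member the 3 genes with the highest correlation. For *Lgals8*, 1 of these is not reported here. Alternatives were RLE size factors, DESeq2 1.42.0, no filter, the replicate number as a block, a GC correction with and without the block, culture time as a term, and each library left out. Figures used Python 3.11.15 with matplotlib 3.10.9.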

Additional observations from a re-analysis of the deposited data

How the results depend on the processing

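With each of the 8 libraries left out, *Lgals3bp* in E6 against WT had averaged log2 FCs of 3.07 to 3.28. They were 3.11 to 3.55 before and 2.96 to 3.08 after adhesion. Under the 7 other alternatives these ranges were 3.06 to 3.19, 3.22 to 3.32 and 2.86 to 3.06, and the gene was DE. These 3 contrasts chose the members, so this is a description and no test. A condition left with 1 library was assumed to vary like the others. Leaving out each library in turn, the number of members DE ranged from 1 to 3 in each of these 3 contrasts, from 0 to 4 after adhesion in WT, from 0 to 1 in E6, from 0 to 2 averaged and from 0 to 1 for the difference of the effects. The highest of these member counts came without replicate 1 or without replicate 2 of WT after adhesion. More of all tested genes were DE there too, as the all-gene counts in the next paragraph show. With a GC correction 1 member was DE in E6 against WT averaged, beside 12.0% of all tested genes. *Lgals9* was lost there at a log2 FC of 0.57. Before adhesion 2 members were DE with DESeq2, with a GC correction and with a GC correction and the replicate block. The shares of all tested genes were 7.21%, 7.77% and 6.58%. The averaged adhesion contrast had 0 with no filter on low counts and 0 with culture time as a term, beside 1.04% and 1.06% of all. The number of DE genes in the 3 lists also changed as libraries were left out, in E6 against WT and after adhesion.

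Replicate numbers were not taken to pair the samples, although in E6 replicate 1 had 24 h of culture and replicate 2 had 12 h, before and after adhesion. Deviations of replicate 1 from its group mean correlated between groups at -0.079 to 0.222 over 9768 genes. With 2 libraries per condition these values cannot show whether samples were paired. With the replicate block the counts of members DE were 2, 1 and 1 in E6 against WT averaged, before and after adhesion, and 0, 0, 1 and 0 in adhesion in WT, in E6, averaged and in the difference, as without it. Over all genes E6 against WT before adhesion had 383 DE mRNAs with the block, 345 with culture time and 902 with a GC correction, against 585. Adhesion in E6 had 132 with the block and 142 with culture time, against 234, and averaged adhesion had 139, 124 and, with DESeq2, 337, against 221. As each library was left out, all-gene counts in E6 against WT ranged from 671 to 2557 averaged, 37 to 1512 before and 27 to 4500 after adhesion, and those of adhesion from 0 to 3550 in WT, 0 to 643 in E6, 39 to 1341 averaged and 0 to 3049 for the difference, the 4500, 3550, 1341 and 3049 without replicate 2 of WT after adhesion.

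Values that changed sign were small or rested on replicate 1 or 2 of WT after adhesion. For *Lgals1* in E6 against WT after adhesion (-0.02) they were 0.00 with RLE size factors, 0.00 with DESeq2, 0.02 with no filter, 0.04 with the replicate block and 0.06 with culture time, and -0.46 to 0.72 as each library was left out. Its averaged value then ranged from -0.36 to 0.23, its adhesion value in WT from -1.15 to 0.05 and its difference of effects from -0.20 to 0.99. The difference ranged from -0.08 to 0.58 for *Lgals3* and from -0.41 to 0.19 for *Lgals9*. *Lgals8* after adhesion in WT (0.00) had 0.00 with DESeq2, -0.01 with no filter, -0.07 with a GC correction, with or without the replicate block, and -0.06 to 0.04 as each library was left out. The cause was not tested. Of 525 single-gene values, 468 kept their sign and DE status, 22 changed sign, 20 became DE and 16 lost it, with 1 that changed sign and became DE (*Lgals1*, 0.72). For single genes, no filter and the GC correction with the block were added after seeing the data. Low counts limited *Lgals4* and *Lgals7*, and several genes of the lists.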
